A study of Mus musculus with 11 samples.

Results

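The genes described here are 36 immediate early and dissociation stress genes, a set given by symbol and found among the 16894 genes of the deposited table through their Entrez identifiers. All 36 were found. They code for AP-1 and EGR transcription factors, NR4A receptors, Krüppel-like factors, MAP kinase phosphatases, regulators of mRNA decay, inhibitors of NF-κB and inducible heat shock proteins. RNA was sequenced from mouse microglia, the resident macrophages of the brain, in 11 libraries: 3 of primary microglia kept in cell culture (cultured), 4 of resident microglia and 4 of transplanted microglia. Resident and transplanted cells were purified by fluorescence-activated cell sorting, and the transplanted cells were sorted 3 months after transplantation. All 3 groups carried the Cx3cr1-GFP genotype. The labels attach to every library a protocol of chow with 600 mg/kg PLX3397, a Csf1r inhibitor that depletes microglia, given in 3 cycles before cells were transplanted; whether the donors of resident or cultured cells received it is not stated. Ages are not stated either, nor whether the replicates are separate animals or cultures. The p-values therefore measure only the spread over these samples, and this may be technical.

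Immediate early genes are transcribed within minutes of a stimulus from factors already present in the cell, through serum response factor, CREB and MAP kinase signalling, and need no new protein synthesis. Many of their products, such as the phosphatase Dusp1, the RNA-binding protein Zfp36 and the NF-κB inhibitor Nfkbia, shut the response down again, so that transcripts normally rise and fall quickly. In microglia these genes are known to be induced by tissue dissociation, warm enzyme digestion and sorting as well as by signals in the living brain, which makes them a usual check of how cells were handled.

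Promoter sequences of some of these genes hold control elements that immediate early and heat shock genes are known for. RefSeq start sites on GRCm38.p6 gave a promoter window for 30 of the 36 genes (36 windows, since some genes have several start sites). Motifs were searched over the 250 bases before each start and counted by gene, because windows of 1 gene can overlap. A CArG box, the binding motif of serum response factor, was present for 3 of the 30 genes (10%), Egr2, Dusp5 and Zfp36, against 1.62% of all 27025 genes with a window of that length. The cyclic AMP response element TGACGTCA was present for 3 genes (10%; Dusp1, Btg2 and Maff) against 1.77% of all. The NF-kB motif was present for 6 genes (20%; Fos, Fosb, Fosl2, Ier3, Nfkbia and Maff) against 4.46%, and the core of a heat shock element, GAANNTTC, for 4 (13.3%; Fosl2, Jun, Hspa1a and Hspa1b) against 7.73%. The AP-1 motif TGACTCA was present for 0 of 30, against 5.16%. Both strands were searched, and a match is a run of letters, not evidence of binding. The 150 bases before the start are shown for 6 genes that illustrate these elements, 5′ to 3′ on the strand of the gene, with the matched motif in capitals.
Dusp1 (chr17:26508473-26508622, minus strand): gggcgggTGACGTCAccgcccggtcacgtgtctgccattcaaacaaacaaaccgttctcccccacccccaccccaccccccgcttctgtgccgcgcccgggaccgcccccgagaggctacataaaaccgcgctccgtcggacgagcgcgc
Dusp5 (chr19:53528995-53529144, plus strand): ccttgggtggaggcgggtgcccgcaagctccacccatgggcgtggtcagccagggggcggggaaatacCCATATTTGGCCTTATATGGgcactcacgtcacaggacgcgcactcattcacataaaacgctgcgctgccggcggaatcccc
Zfp36 (chr7:28379229-28379378, minus strand): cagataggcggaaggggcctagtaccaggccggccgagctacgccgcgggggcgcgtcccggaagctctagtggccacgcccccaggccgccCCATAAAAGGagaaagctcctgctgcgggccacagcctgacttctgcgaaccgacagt
Nfkbia (chr12:55492648-55492797, minus strand): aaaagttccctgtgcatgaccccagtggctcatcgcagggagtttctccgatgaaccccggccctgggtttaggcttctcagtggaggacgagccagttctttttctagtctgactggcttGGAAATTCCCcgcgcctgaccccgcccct
Hspa1a (chr17:34972157-34972306, minus strand): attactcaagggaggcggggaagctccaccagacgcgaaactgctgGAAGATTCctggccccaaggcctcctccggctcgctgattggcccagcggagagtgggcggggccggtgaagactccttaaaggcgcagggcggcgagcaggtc
Hspa1b (chr17:34959239-34959388, minus strand): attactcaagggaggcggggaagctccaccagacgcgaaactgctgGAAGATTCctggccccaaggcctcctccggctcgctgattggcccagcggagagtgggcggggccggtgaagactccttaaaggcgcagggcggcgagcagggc
In Dusp1 the capitals are the cyclic AMP response element, 143 to 136 bases before the start. In Dusp5 they are 2 CArG boxes side by side, in Zfp36 a single CArG box, and in Nfkbia an NF-kB motif 29 to 20 bases before the start. The heat shock cores of Hspa1a and Hspa1b lie 104 to 97 bases before the start. The Hspa1a and Hspa1b sequences are the same at 149 of 150 positions.

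Total expected counts were 26705034 to 28219696 in cultured libraries and 18692721 to 19965631 in sorted libraries, so that 3 counts, the limit that a count of 0 allows, equal 0.106 to 0.112 and 0.15 to 0.16 CPM (counts scaled to a common library total). Levels across libraries are given below as CPM with TMM scaling, and levels between genes as the deposited TPM, which is scaled for length. The labelled cell type was checked against 8 microglial markers. Their summed level ran from 3434 to 5954 CPM in cultured libraries, from 44166 to 53781 in transplanted ones and from 50824 to 56705 in resident ones. In cultured libraries Tmem119 was at 8.81 to 13.4 CPM and P2ry12 at 25.3 to 46.9, and Csf1r at 2021 to 4055, against 13496 to 16751 for Csf1r in sorted libraries. The summed level of 5 markers of border-associated macrophages was 1787 to 2510 CPM in cultured libraries, 41.6 to 83.8 in resident ones and 14.6 to 24.8 in transplanted ones. The cultured sum came almost wholly from Pf4 (987 to 1884 CPM) and Mrc1 (617 to 819). Lyve1 (0.286 to 0.532 CPM against 3.09 to 4.16) and Cd163 (0.487 to 1.57 against 4.13 to 8.46) were lower in cultured than in resident libraries. Cbr2 overlapped, at 4.77 to 7.84 and 3.04 to 6.96 CPM.

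One library stood apart in these genes. Resident replicate 1 held the highest value of the 4 resident libraries for 36 of 36 genes, whereas it was the highest for 26.2% of all 12590 genes kept. In log2 CPM it exceeded the mean of the other resident libraries by a median of 3.20 over the 36 genes, from 0.43 for Fosl2 to 9.15 for Fos, while the median over all genes was -0.02. The difference was over 1 for 30 of the 36 genes and for 1.93% of all genes. When all 12590 genes were ranked by this difference, 8 of the top 10, 14 of the top 20 and 22 of the top 50 were among the 36. The 36 genes together took 2.07% of all counts in that library, 0.283% to 0.293% in the other resident libraries, 0.271% to 0.333% in transplanted and 0.804% to 0.831% in cultured libraries. This is a description of 1 library against 3, with no test.

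**Figure D1:**
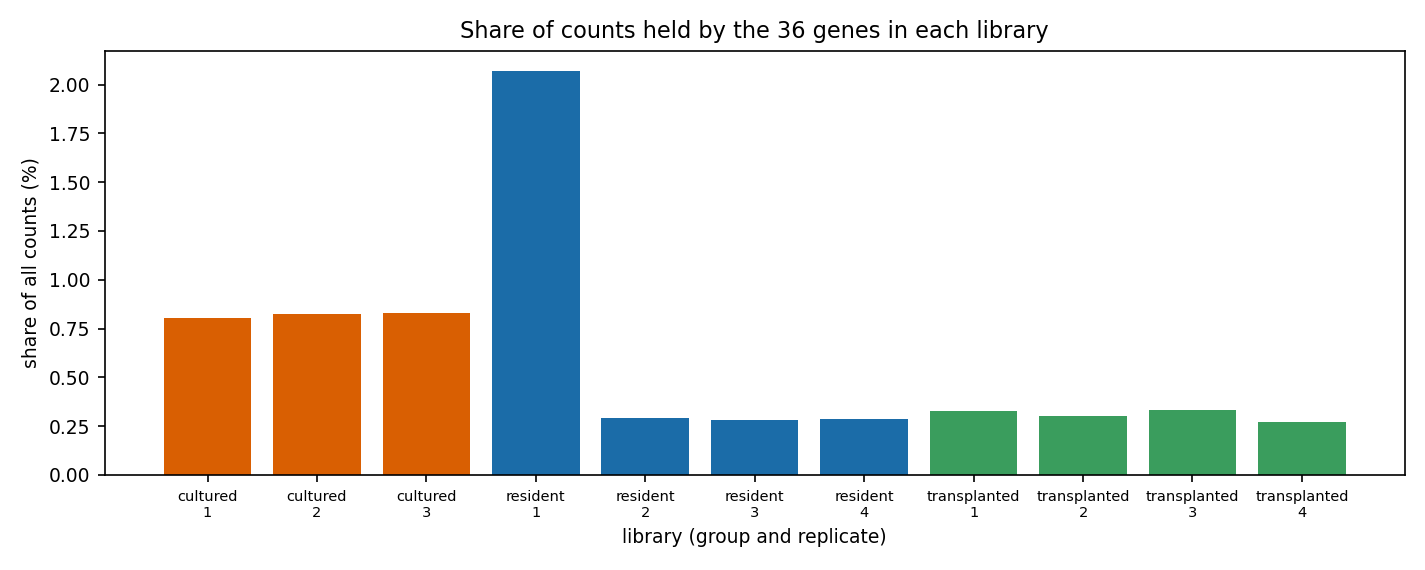
Share of all expected counts (percent) taken by the 36 genes in each of the 11 libraries, coloured by group, with 1 bar per library. Resident replicate 1 reaches 2.07%, above the cultured libraries at 0.804% to 0.831%, and the other sorted libraries lie between 0.271% and 0.333%.

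Among genes outside the set, Ccl2 (rank 8) and Ccl3 (rank 17) were also near the top of that ranking. Ccl2 was at 137 CPM in resident replicate 1 and at a mean of 2.69 in the other resident libraries, and Ccl3 at 144 and 8.66. Both are chemokine genes, singled out here after their values were seen. In the same library no marker sum of another cell type lay above the range of the other resident libraries. The endothelial sum was 47.8 CPM against 57.4 to 64.6 and the lymphocyte sum 18.2 against 23.9 to 27.1. The neuron and monocyte sums also lay below that range, and the remaining sums within it. Of single markers, Pdgfrb (0.543 CPM against 0.0467 to 0.137), Rgs5, Aldh1l1, Mag and Rbfox3 were highest in this library. Cldn5, Ly6c1, Cd3e, Ms4a1, Col1a1, Dcn, S100a8, Chil3 and Ly6c2 were at 0 there, but at most 0.514 CPM in the other resident libraries. Its microglial sum of 50824 CPM was below the 55983 to 56705 of the other resident libraries. The sum of 4 measured neutrophil markers, 736 to 829 CPM over the resident libraries, came almost wholly from Csf3r. The part of handling, animal or sequencing in this library's values was not tested. For genes of the set, the counts called against resident cells are therefore given with and without it. So are the printed fold changes of the set that it moved by over 1.5 times.

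**Figure D2:**
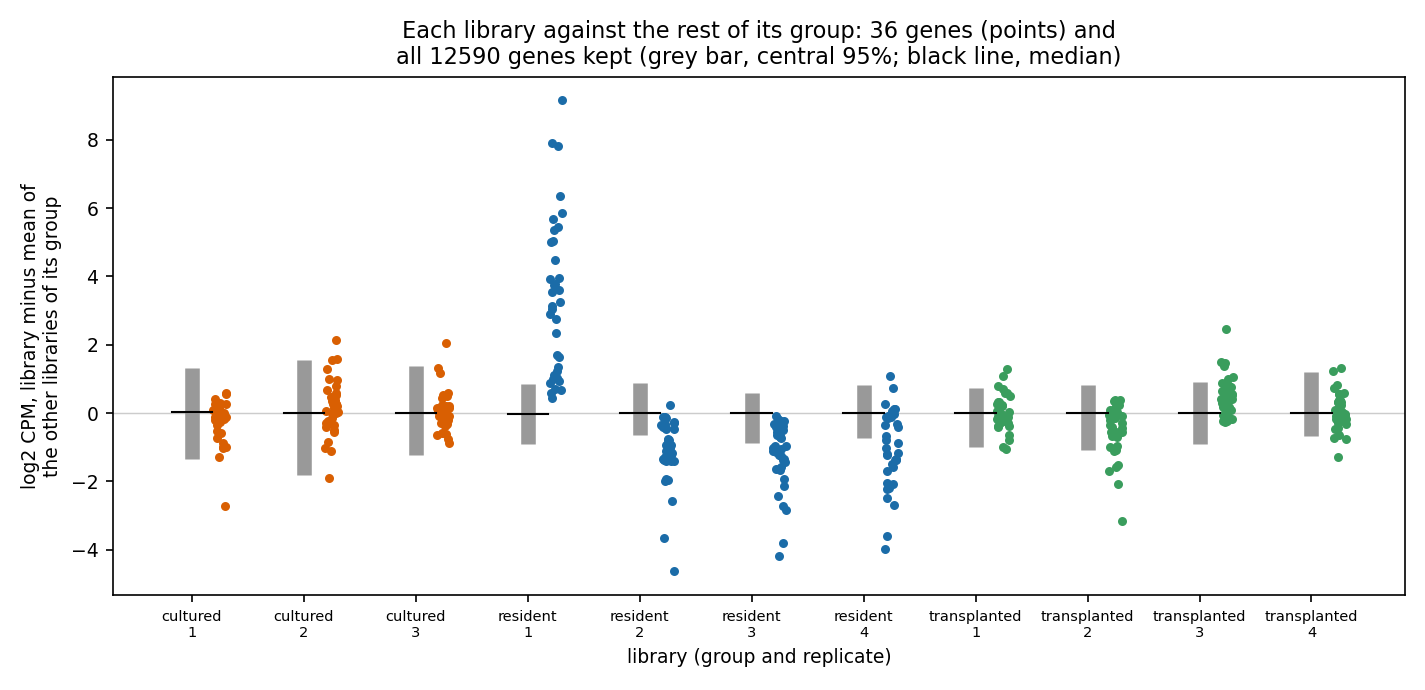
Difference in log2 CPM between each library and the mean of the other libraries of its group, for the 36 genes (points) and for all 12590 genes kept (grey bar, central 95%; black line, median). The points of resident replicate 1 run from 0.43 to 9.15 and have a median of 3.20. The medians of the other resident libraries lie at -1.07, -1.04 and -0.95, each set against a mean that includes replicate 1, and single points of replicates 2 and 4 lie above 0.

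The order of levels between resident replicate 1 and the cultured libraries differed from gene to gene. Against the range of the 3 cultured libraries, its level was above for 15 genes, within for 4 and below for 17. Above the range were Fos, Jun, Egr1, Atf3, Ier2, Dusp1, Dusp2, Dusp6, Btg2, Zfp36, Klf2, Hspa1a, Hspa1b, Rhob and Nfkbiz. Below it were all 3 NR4A genes, Egr2, Egr3, Fosl2, Dusp5, Ier3, Btg1, Klf4, Klf6, Klf10, Myc, Nfkbia, Gadd45b, Maff and Cebpb. By TPM the most abundant member also differed. Zfp36 led resident replicate 1 at 3198 TPM, Junb led the cultured libraries at 742 to 1133 TPM, and Dusp6 led the 7 other sorted libraries at 485 to 961 TPM.

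**Figure D3:**
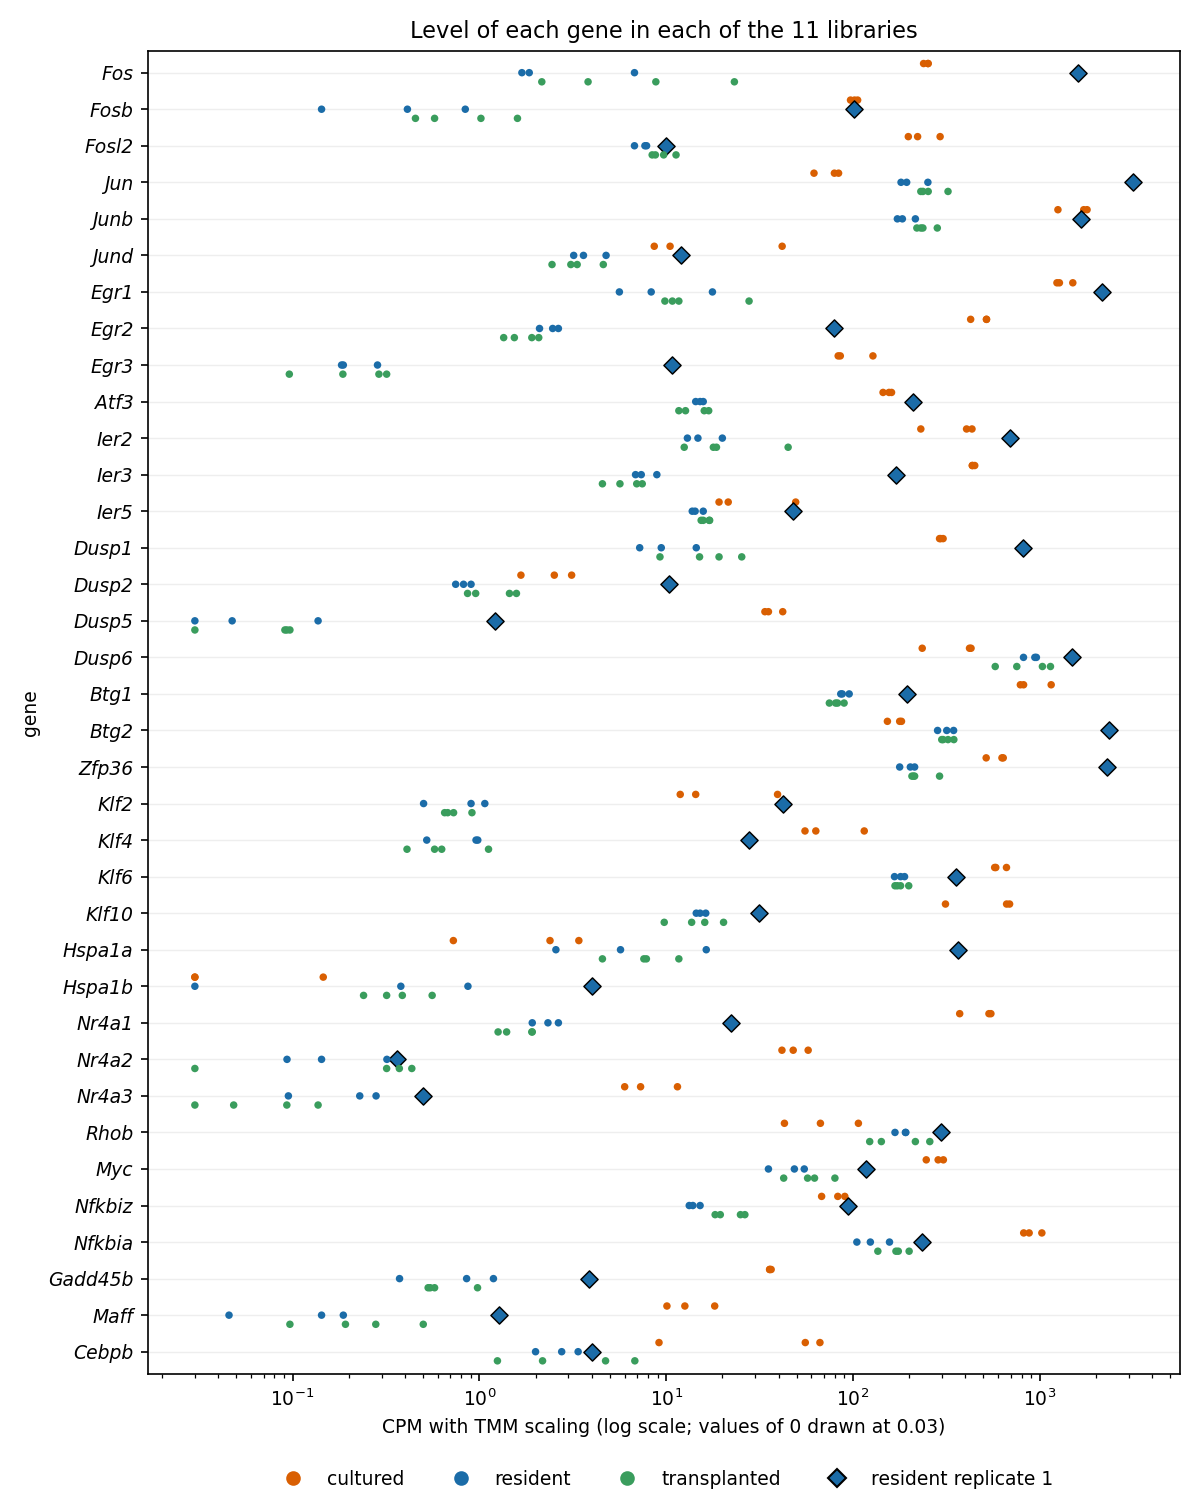
Level of each of the 36 genes in each of the 11 libraries, as CPM with TMM scaling on a log axis; diamonds mark resident replicate 1 and values of 0 are drawn at the left. Most genes are highest in the cultured libraries or in resident replicate 1, while Jun, Dusp6, Btg2 and Rhob are lower in each of the 3 cultured libraries than in each of the 8 sorted ones.

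Cultured and resident microglia were compared to ask how far expression in culture departs from that in sorted resident cells. The labels name sorting for resident and transplanted cells only. Here and in the next comparison, culture therefore cannot be told apart from dissociation and sorting. Of the 36 genes, 35 passed the filter on low counts (Hspa1b did not). With all resident libraries, 18 were higher in cultured cells and 5 lower by edgeR's quasi-likelihood test at an adjusted p under 0.05, against 37.9% of all genes tested called higher and 37.2% called lower. Their median log2 fold change was 1.82, and that of all genes tested -0.02. Without resident replicate 1, 30 were higher and 5 lower, against 36% and 35.5% of all genes, and the median was 4.5. All 23 calls of the first fit were also made in the second in the same direction, and 12 were added: Atf3, Dusp1, Dusp2, Egr1, Fos, Fosb, Ier2, Ier5, Junb, Klf2, Nfkbiz and Zfp36. The 5 genes lower in cultured cells were Jun, Dusp6, Btg2, Hspa1a and Rhob in both fits. With all libraries a robust version of the edgeR fit called 3 of them, not Btg2 (adjusted p = 0.0523) or Hspa1a (0.0613). The genes Dusp5, Egr3, Maff, Nr4a2 and Nr4a3 had few counts in sorted cells and passed the filter only through the cultured libraries, so they had to differ. They are given below by their levels. Of the other 30 genes, 13 were called higher with all libraries and 25 without resident replicate 1. In the second fit Fosb and Gadd45b, among the 25, also passed the filter only through the cultured libraries, so there they too had to differ. In resident replicates 2 to 4 Fosb was at 0.143 to 0.841 CPM and Gadd45b at 0.374 to 1.19. In bulk RNA, fewer cells expressing a gene and less RNA per cell cannot be told apart.

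Transplanted and cultured cells were compared next, a comparison that shares its cultured libraries with the one above. They differed in 35 of the 35 genes tested. Among these, Dusp5, Egr3, Maff, Nr4a2 and Nr4a3 again passed the filter only through the cultured libraries, so they had to differ. By the same edgeR test 5 of the 35 were higher in transplanted cells and 30 lower, those just named among the latter. Of all genes tested, 36.9% were higher and 35.5% lower. The median log2 fold change was -3.94 against 0.05 over all genes. The 5 higher were again Jun, Dusp6, Btg2, Hspa1a and Rhob. When the 3 groups were fitted together and shared 1 estimate of spread, 2 of these were called, Dusp6 and Rhob, and Jun (adjusted p = 0.0773), Btg2 (0.21) and Hspa1a (0.267) were not. On deposited TPM the median of all genes was itself 0.98 higher in transplanted cells. There Ier5 (log2 fold change 0.31) and Dusp2 (0.06) changed direction, neither past the threshold, and 26 of the 35 genes tested were called lower.

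Transplanted and resident cells were compared to ask whether cells that settled after transplantation resemble sorted resident microglia. Of the 36 genes 30 passed the filter (not Dusp5, Egr3, Hspa1b, Maff, Nr4a2 and Nr4a3). With all libraries edgeR called 0 of them, against 7.17% of all genes higher and 5.86% lower, although their median log2 fold change was -1.39 and 12 had an unadjusted p under 0.05. DESeq2 also called 0, but it gave no adjusted p to 19 of the 36, as it does for genes with an extreme count in 1 library. Without resident replicate 1 edgeR called 1, Nfkbiz, against 4.83% of all genes higher and 4.92% lower. The median was then 0.07, and 12 genes had the opposite sign of their value with all libraries. A p over the threshold does not show that levels were alike.

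**Figure D4:**
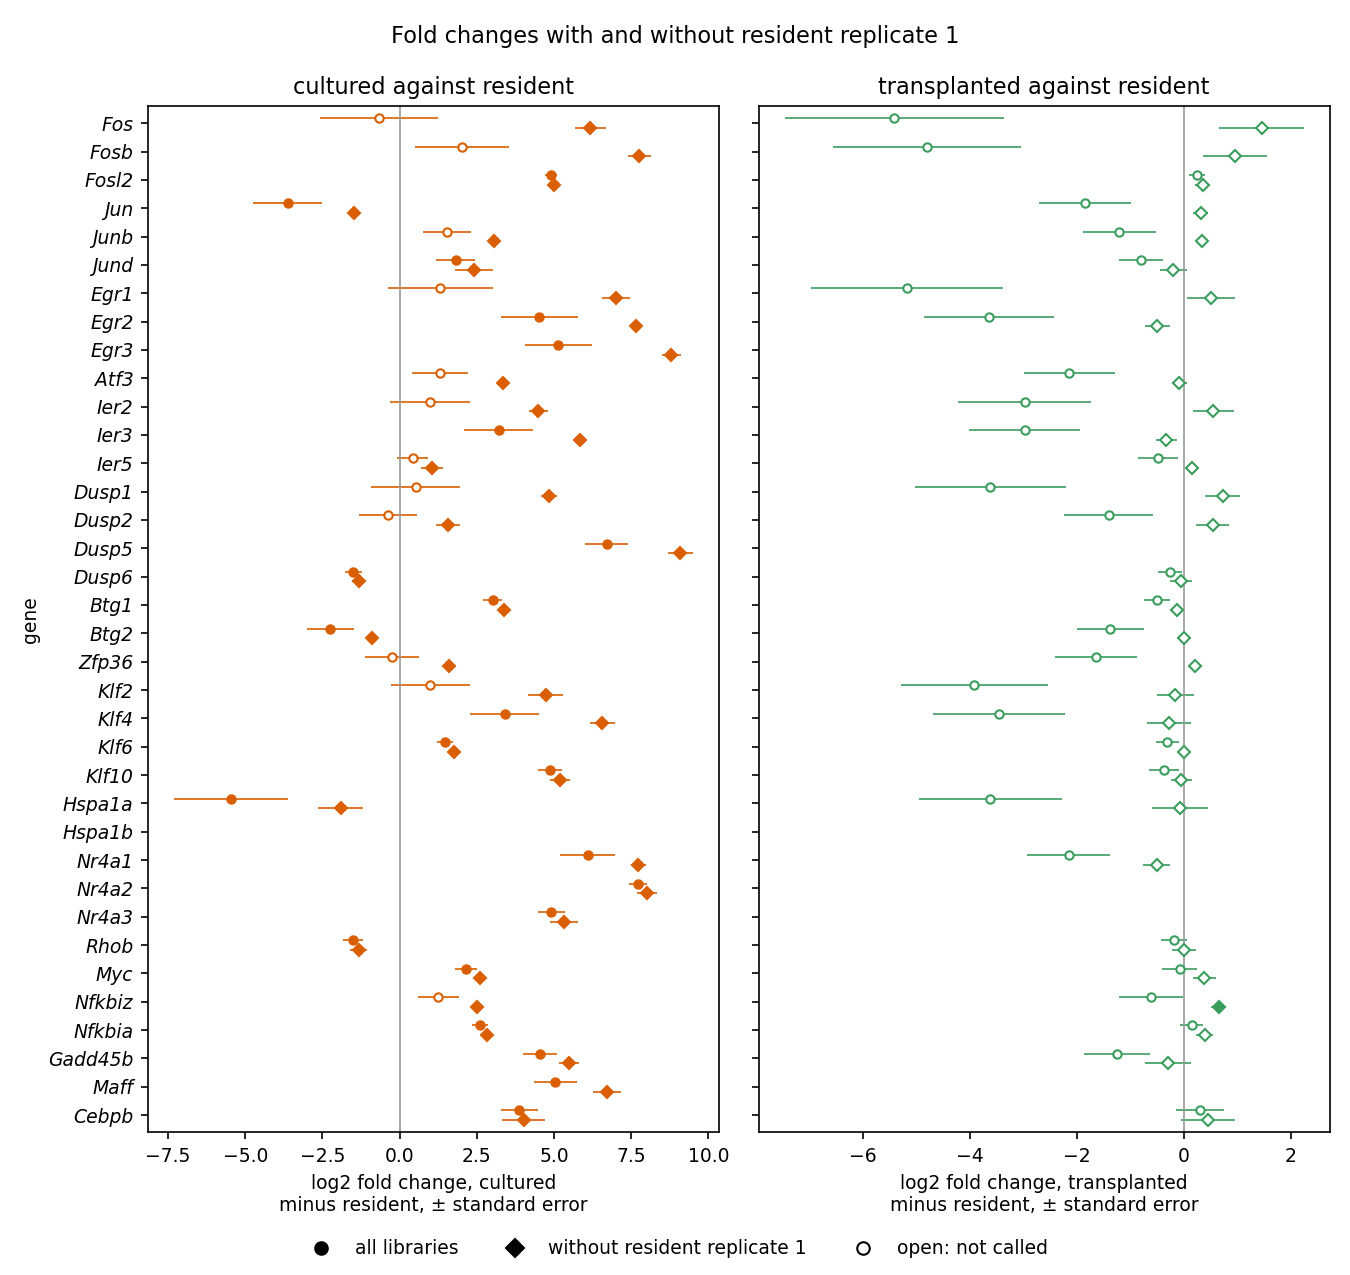
Log2 fold changes with standard errors for cultured against resident (left) and transplanted against resident (right), from edgeR, with all libraries (circles) and without resident replicate 1 (diamonds); filled symbols are called at an adjusted p under 0.05. Without that library the 35 tested genes are all called on the left, and on the right Nfkbiz alone is, with most values near 0.

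AP-1 is a dimer of Fos and Jun family proteins, and its genes moved in different directions in culture. Fos, the founding immediate early gene (chr12:85473890-85477274, GRCm38.p6), was at 252, 253 and 239 CPM in cultured libraries. It was at 1608, 6.77, 1.85 and 1.69 CPM in resident replicates 1 to 4 and at 3.82, 2.16, 23.2 and 8.81 in transplanted replicates 1 to 4. So resident replicate 1 alone exceeded the cultured libraries, and transplanted replicate 3 was the highest of its group. With all libraries Fos had a log2 fold change of -0.68 ± 1.91 (standard error, SE) in cultured against resident cells, with an adjusted p of 0.758 in edgeR. With that library left out it was higher in cultured cells by 6.18 ± 0.51, a 72.6-fold difference (adjusted p = 1.64e-05). Transplanted cells were 26.4-fold below cultured cells (log2 fold change -4.72 ± 0.65, edgeR adjusted p = 0.000103).

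Fosb was at 97.1 to 106 CPM in cultured libraries, 101 in resident replicate 1, 0.143 to 0.841 in the other resident libraries and 0.455 to 1.6 in transplanted ones. Resident replicate 1 thus lay within the cultured range for Fosb, and every other sorted library far below it. Fosl2, a more slowly induced Fos family member, was the gene of the set least raised in resident replicate 1, at 10 CPM against 6.77 to 7.86. It was at 198 to 293 CPM in culture, 30.1-fold above resident cells with all libraries (adjusted p = 4.45e-08 in edgeR).

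Jun, the partner of Fos, ran the other way in culture. It was at 83.8, 61.9 and 79.6 CPM in cultured libraries, at 3153, 252, 194 and 181 in resident replicates 1 to 4 and at 237, 253, 323 and 231 in transplanted replicates 1 to 4. Every sorted library was above every cultured one. With all libraries Jun was 12.3-fold lower in cultured than in resident cells (log2 fold change -3.62 ± 1.12, edgeR adjusted p = 0.0152), and without resident replicate 1 it was 2.76-fold lower (-1.47 ± 0.17, adjusted p = 0.000115). It was 3.44-fold higher in transplanted than in cultured cells (1.78 ± 0.17, adjusted p = 7.09e-06). Junb, which forms AP-1 dimers of weaker activity, was high in culture instead. It was at 1252 to 1793 CPM there, 1674 in resident replicate 1, 173 to 216 in the other resident libraries and 220 to 283 in transplanted ones. The 4 transplanted values lay above the 3 of resident replicates 2 to 4, but the difference of 0.33 ± 0.11 in log2 had an adjusted p of 0.0847 in edgeR, and with replicate 1 included it was -1.21 ± 0.68 (adjusted p = 0.279). Jund was at 41.8 CPM in cultured replicate 2 and at 8.64 and 10.5 in the other cultured libraries, against 2.45 to 12 in sorted cells. It was 3.52-fold higher in cultured than resident cells with all libraries (edgeR adjusted p = 0.0257) and 5.31-fold higher without resident replicate 1 (0.00704). Its call in culture was lost without cultured replicate 2, where the log2 fold change was 0.69 (adjusted p = 0.224), and also without resident replicate 2, 3 or 4 (adjusted p = 0.0649 to 0.0665).

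Atf3, a stress-induced factor that can pair with AP-1 proteins, was at 145 to 161 CPM in cultured libraries, 209 in resident replicate 1 and 11.7 to 16.9 in the 7 other sorted libraries. With all libraries Atf3 was not called in cultured against resident cells (log2 fold change 1.31 ± 0.91, edgeR adjusted p = 0.218). Leaving resident replicate 1 out, it was 10.2-fold higher in cultured cells (adjusted p = 2.32e-07). Its value for transplanted against resident cells was -2.15 ± 0.85 in log2 with that library (edgeR adjusted p = 0.13) and -0.09 ± 0.14 without it (0.741). Maff, a small Maf protein without an activation domain, was at 10.1 to 18.2 CPM in culture and at most 1.27 in sorted libraries, a level reached in resident replicate 1.

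The EGR zinc finger factors are direct targets of serum response factor. Egr1 was at 1237, 1504 and 1275 CPM in cultured libraries. It was at 2148, 17.7, 8.32 and 5.62 CPM in resident replicates 1 to 4 and at 11.7, 9.85, 27.8 and 10.8 in transplanted replicates 1 to 4. As for Fos, resident replicate 1 lay above the cultured range and transplanted replicate 3 led its group. With all libraries the log2 fold change of cultured against resident cells was 1.32 ± 1.70 (edgeR adjusted p = 0.494), and without resident replicate 1 it was 7.0 ± 0.45 (adjusted p = 3.90e-06). Egr2 and Egr3 differed from Egr1 in that resident replicate 1 was far below the cultured libraries. Egr2, known for myelination and for macrophage activation, was at 427 to 519 CPM in culture, 79.2 in resident replicate 1 and 1.35 to 2.65 in the other sorted libraries. Egr3 was at 83.4 to 128, 10.7 and 0.0961 to 0.319 CPM. Egr2 was called higher in culture than in resident cells in both fits, while Egr3 is one of the genes that had to differ. The fold of Egr2 was 23 with all libraries (edgeR adjusted p = 0.00903) and 204 without resident replicate 1 (5.24e-08).

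The NR4A genes code for orphan nuclear receptors that are switched by their own level rather than by a known ligand. For all 3 the cultured libraries lay above every sorted one. Nr4a1 was at 548, 373 and 535 CPM in cultured libraries, at 22.2, 1.92, 2.33 and 2.65 in resident replicates 1 to 4 and at 1.91, 1.92, 1.4 and 1.26 in transplanted replicates 1 to 4. Resident replicate 1 was 9.58-fold above the mean of its group's other libraries and far below the cultured ones. Nr4a1 was 67.9-fold higher in cultured than resident cells with all libraries (log2 fold change 6.09 ± 0.88, edgeR adjusted p = 0.000188) and 212-fold higher without resident replicate 1 (7.73 ± 0.24, adjusted p = 1.22e-07). It was 301-fold lower in transplanted than cultured cells (-8.23 ± 0.23, adjusted p = 4.50e-09). Nr4a2 was at 41.7 to 57.6 CPM in culture and at most 0.435 in sorted libraries, and Nr4a3 at 6 to 11.5 and at most 0.498. Most sorted values of both are near or under the level of 3 counts, so that differences among sorted libraries were not detectable at this depth.

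The IER genes are named for their immediate early response. Ier2, a nuclear protein, was at 231 to 434 CPM in culture, 693 in resident replicate 1, 13 to 20 in the other resident libraries and 12.5 to 45 in transplanted ones, with the top value again in transplanted replicate 3. Ier3, linked to cell survival, was at 436 to 449 CPM in culture, 171 in resident replicate 1 and 4.56 to 8.92 elsewhere. Ier3 was 9.24-fold higher in cultured than resident cells with all libraries (edgeR adjusted p = 0.0252) and 57.5-fold higher without resident replicate 1 (7.76e-08). The call was lost without resident replicate 2 (adjusted p = 0.0531). Ier5, an activator of heat shock factor, varied least of the 3: 21.5, 49.4 and 19.2 CPM in cultured libraries, 48 in resident replicate 1 and 13.8 to 17.1 in the other sorted ones. Its log2 fold change in cultured against resident cells was 0.42 ± 0.50 with all libraries (edgeR adjusted p = 0.467) and 1.05 ± 0.35 without resident replicate 1 (0.0257), and on TPM with all libraries its direction was reversed (-0.54). Its lower level in transplanted than cultured cells (1.86-fold, adjusted p = 0.0214) missed the threshold without transplanted replicate 1 (0.0504).

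The DUSP genes code for phosphatases that switch MAP kinases off, and the 4 measured here behaved differently. Dusp1, a nuclear phosphatase of p38 and JNK, was at 291, 295 and 304 CPM in cultured libraries, at 812, 14.5, 7.22 and 9.42 in resident replicates 1 to 4 and at 15.1, 9.27, 25.4 and 19.2 in transplanted replicates 1 to 4. With all libraries its log2 fold change in cultured against resident cells was 0.52 ± 1.44 (edgeR adjusted p = 0.754). Leaving resident replicate 1 out, it was 28.8-fold higher in cultured cells (4.85 ± 0.26, adjusted p = 1.51e-06). Transplanted against resident cells gave -3.62 ± 1.41 with that library (edgeR adjusted p = 0.127) and 0.72 ± 0.33 without it (0.215), with overlapping values in either case.

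Dusp6, a cytoplasmic phosphatase specific for ERK and a usual readout of steady ERK signalling, was high in every sorted library. It was at 421, 235 and 429 CPM in cultured libraries, 1488, 819, 942 and 960 in resident replicates 1 to 4 and 1142, 1034, 754 and 578 in transplanted replicates 1 to 4. No cultured value reached the lowest sorted one. Cultured cells were 2.84-fold below resident cells (log2 fold change -1.50 ± 0.27, edgeR adjusted p = 0.000763), and transplanted cells 2.4-fold above cultured cells (1.26 ± 0.28, adjusted p = 0.00219). Dusp5, the nuclear phosphatase of ERK, showed the reverse: 33.8 to 42.1 CPM in culture, 1.22 in resident replicate 1 and at most 0.137 in the other sorted libraries. Dusp2 stayed low, at 1.67 to 3.12 CPM in culture, 10.4 in resident replicate 1 and 0.747 to 1.58 elsewhere. Its lower level in transplanted than cultured cells (log2 fold change -1.02 ± 0.37, edgeR adjusted p = 0.0314) missed the threshold without cultured replicate 3 (adjusted p = 0.117), without transplanted replicate 1 (0.0832) and without transplanted replicate 2 (0.0745).

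Among regulators of mRNA decay, Zfp36 encodes tristetraprolin, which binds AU-rich elements of short-lived transcripts such as Fos and Tnf. It was at 628, 517 and 638 CPM in cultured libraries, at 2299, 214, 203 and 178 in resident replicates 1 to 4 and at 214, 211, 291 and 207 in transplanted replicates 1 to 4. With all libraries its log2 fold change in cultured against resident cells was -0.25 ± 0.87 (edgeR adjusted p = 0.802), and without resident replicate 1 it was 1.59 ± 0.13 (adjusted p = 1.64e-05). Btg1 and Btg2 are antiproliferative proteins that recruit the CCR4-NOT deadenylase, and they went opposite ways. Btg1 was at 788 to 1152 CPM in culture, 194 in resident replicate 1 and 74.8 to 95.5 in the other sorted libraries. Btg2 was at 182, 153 and 178 CPM in cultured libraries, 2352, 346, 318 and 284 in resident replicates 1 to 4 and 323, 304, 347 and 299 in transplanted replicates 1 to 4. Btg2 was 4.72-fold lower in cultured than in resident cells with all libraries (edgeR adjusted p = 0.0254) and 1.84-fold lower without resident replicate 1 (0.000352). The value of transplanted against resident cells was -1.38 ± 0.63 in log2 with that library (edgeR adjusted p = 0.186) and -0.00 ± 0.09 without it (0.996). With resident replicate 1 kept, leaving out any 1 cultured library took the Btg2 call away (adjusted p = 0.0617 to 0.0635).

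Among Krüppel-like factors Klf6 was the most abundant in sorted cells by TPM, at 88.8 to 192. Klf2, a flow- and statin-responsive factor that restrains inflammation, was at 11.9, 39.5 and 14.4 CPM in cultured libraries, 42.5 in resident replicate 1 and 0.503 to 1.07 in the other sorted libraries. Klf4, known in macrophage polarisation, was at 55.4 to 115 CPM in culture, 27.7 in resident replicate 1 and 0.41 to 1.12 elsewhere. Klf10, a target of TGF-β, was at 313 to 690 CPM in culture, 31.5 in resident replicate 1 and 9.77 to 20.3 elsewhere. These 3 genes thus shared low levels in the 7 other sorted libraries, while resident replicate 1 reached the cultured level for Klf2 only. Klf6 was at 574 to 664 CPM in culture, 358 in resident replicate 1 and 167 to 199 elsewhere, 2.78-fold higher in cultured than resident cells (edgeR adjusted p = 0.000622). That Klf6 call was lost on TPM, where the log2 fold change was 0.45 (limma adjusted p = 0.117) and the median of all genes was shifted by -0.95.

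Hspa1a and Hspa1b code for the inducible Hsp70 chaperone and are near-identical copies: 47.1% of the 100-base words of Hspa1a transcripts occur in Hspa1b, and 49.9% the other way. How the authors' counting split shared reads is not known, so the values of each are uncertain. Hspa1a was at 2.39, 0.726 and 3.41 CPM in cultured libraries, at 366, 2.57, 5.7 and 16.4 in resident replicates 1 to 4 and at 7.6, 4.56, 11.7 and 7.84 in transplanted replicates 1 to 4. Resident replicate 1 stood far above every other library, and resident replicate 2 was within the cultured range. Hspa1a was called lower in cultured than resident cells with all libraries (44-fold, edgeR adjusted p = 0.0231) and, closer to the threshold, without resident replicate 1 (3.76-fold, adjusted p = 0.045). The first call was lost without any 1 of the cultured libraries (adjusted p = 0.0543 to 0.0696). Hspa1b had 89 counts in resident replicate 1 and 19 or fewer in the other libraries. Its 3 counts in cultured libraries against 116 in resident ones gave a ratio of 0.0359, with an exact Poisson interval at 95% of 0.0073 to 0.108, which covers counting error only. Without resident replicate 1 there were 27 resident counts, and the ratio was 0.115 (0.0223 to 0.373).

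The remaining genes limit or accompany inflammatory signalling. Nfkbia, which codes for the inhibitor IκBα and is itself a target of NF-κB, was at 821 to 1027 CPM in culture, 234 in resident replicate 1, 105 to 157 in the other resident libraries and 136 to 200 in transplanted ones. It was 6.01-fold higher in cultured than resident cells (edgeR adjusted p = 1.63e-05). Nfkbiz, a nuclear IκB protein that promotes a subset of NF-κB targets, was at 90.5, 68 and 83 CPM in cultured libraries, at 94.6, 15.2, 13.9 and 13.3 in resident replicates 1 to 4 and at 19.5, 18.3, 26.4 and 25 in transplanted replicates 1 to 4. The 4 transplanted values lay above those of resident replicates 2 to 4. The difference without resident replicate 1 was 0.65 ± 0.14 in log2, a 1.57-fold higher level in transplanted cells (edgeR adjusted p = 0.0197). With that library it was -0.62 ± 0.60 (adjusted p = 0.542). Nfkbiz was the only gene of the set called between transplanted and resident cells in these 2 fits.

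Gadd45b, a stress adaptor of p38 and JNK signalling, was at 35.8 to 36.5 CPM in cultured libraries, 3.85 in resident replicate 1 and 0.374 to 1.19 in the other sorted ones. Myc was at 247 to 305 CPM in culture, 117 in resident replicate 1, 35.3 to 54.9 in the other resident libraries and 42.6 to 80.1 in transplanted ones. Both were called higher in culture with all libraries, Gadd45b by 23.4-fold (edgeR adjusted p = 6.09e-05) and Myc by 4.47-fold (0.000431). Without resident replicate 1 the difference of Gadd45b was 44.7-fold (edgeR adjusted p = 2.60e-06), but in that fit Gadd45b passed the filter only through the cultured libraries. Cebpb, a factor of myeloid cells and of cytokine gene expression, was at 9.16 CPM in cultured replicate 1 and at 66.6 and 55.6 in the other cultured libraries, against 1.25 to 6.8 in sorted ones. It was 14.7-fold higher in cultured than resident cells (edgeR adjusted p = 0.000249). Rhob, a small GTPase of endosomes induced by stress, was at 43, 107 and 67 CPM in cultured libraries, at 295, 192, 168 and 191 in resident replicates 1 to 4 and at 142, 123, 216 and 258 in transplanted replicates 1 to 4. Every sorted library was above the cultured ones, and cultured cells were 2.84-fold below resident cells (edgeR adjusted p = 0.00184).

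Among transplanted libraries, replicate 3 was the highest for 19 of the 36 genes, against 26.1% of all genes, with a median difference of 0.41 in log2 from the other transplanted libraries. Its microglial marker sum was the lowest of the transplanted group, at 44166 CPM. In cultured libraries, replicate 2 was the highest for 19 of the 36 genes, against 40.9% of all genes, and the difference over the set had a median of 0.09. Cultured replicate 2 also had the lowest microglial sum of that group, at 3434 CPM. Whether these values bear on the genes described was not tested.

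Genes of related pathways were counted in the same fits, where 37.9% of all genes were higher and 37.2% lower in cultured than resident cells, and 7.17% higher and 5.86% lower in transplanted than resident cells. Of 20 other immediate early genes, 18 were tested in cultured against resident cells. Of these 15 were higher and 0 lower, and their median was 2.72 in log2. The extremes were Plk2, a kinase induced by serum (6.0 ± 0.88, edgeR adjusted p = 0.000202), and Ppp1r15a, which ends the integrated stress response (-1.16 ± 0.87, adjusted p = 0.252). Ppp1r15a was at 312 CPM in resident replicate 1, 24.7 to 31.6 in the other resident libraries and 36.7 to 48 in cultured ones. Plk2 was at 11.6, 0.903 to 1.03 and 139 to 279 CPM. Fosl1 was at 0 to 0.226 CPM in resident and 0.859 to 2.61 in cultured libraries, and Sik1 at 0.14 to 0.869 and 13.1 to 23.4. Both passed the filter only through the cultured libraries, with or without resident replicate 1, so they had to differ. Without resident replicate 1, 17 of the 18 were higher and 0 lower, against 36% and 35.5% of all genes. The lowest value was then that of Sgk1 (0.21 ± 0.25, edgeR adjusted p = 0.457). In transplanted against resident cells 2 of 15 were called, Sik1 (1.80 ± 0.52, adjusted p = 0.0461) and Plk3 (1.20 ± 0.30, adjusted p = 0.0267), both higher. Sik1 was at 0.865 to 2.14 CPM in transplanted libraries. In this comparison it passed the filter only through those libraries, so it had to differ. Leaving resident replicate 1 out, the 2 called were Plk2 (1.58 ± 0.35, adjusted p = 0.0216) and Plk3 (1.42 ± 0.31, adjusted p = 0.0184), and Sik1 had an adjusted p of 0.0743. In resident replicate 1, 15 of 18 were the highest of the group, with a median difference of 0.89. Of 15 cytokine and activation genes known to rise when microglia are handled outside the brain, 12 were higher and 1 lower in cultured than resident cells, with a median of 2.58. Cxcl2, a neutrophil-attracting chemokine, had the highest value (9.18 ± 0.20), at 116 to 157 CPM in culture and 0.181 to 0.285 in resident libraries. It passed the filter only through the cultured libraries, so it had to differ. Icam1, an adhesion molecule, was the one called lower (-1.41 ± 0.20, adjusted p = 0.000185). In transplanted against resident cells 2 of 13 were called, Icam1 (0.52 ± 0.08, adjusted p = 0.00217) and Cd83 (0.49 ± 0.12, adjusted p = 0.0232), both higher; without resident replicate 1, 3 were higher and 1 lower. Cxcl2 was at 0.232 ± 0.0582 CPM (SD, n = 4) in resident cells and not raised in resident replicate 1, where Ccl2 and Ccl3 were.

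The next lists hold factors and kinases known to act upstream of the set, and their calls went in both directions. Of 10 serum response and CREB factors 5 were higher and 3 lower in cultured than resident cells, with a median of 0.05 in log2, against 37.9% and 37.2% of all genes. Srf was highest (2.08 ± 0.43, edgeR adjusted p = 0.0017) and Creb1 lowest (-1.28 ± 0.10, adjusted p = 4.12e-06), and 0 of 10 were called in transplanted against resident cells. Of 18 tested genes of the MAP kinase cascade and its inhibitors 10 were higher and 3 lower in culture. The highest value was that of the ERK inhibitor Spry2 (7.67 ± 0.46), at 28 to 50.2 CPM in culture and 0 to 0.274 in resident libraries. With so few resident counts Spry2 passed the filter only through the cultured libraries, so it had to differ. Dusp8, among the 3 lower, was at 0.0968 to 0.43 CPM in culture and 1.69 to 3.26 in resident libraries. It passed only through the resident libraries and likewise had to differ. In transplanted against resident cells 2 of 16 were higher, Spred2 (0.74 ± 0.12, adjusted p = 0.00227) and Spred1 (0.25 ± 0.07, adjusted p = 0.0452), and Map2k2 was lower (-0.22 ± 0.06, adjusted p = 0.0417). With resident replicate 1 left out, 1 of these calls was made, Spred2 (0.80 ± 0.12, adjusted p = 0.00306).

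Of 17 tested heat shock and chaperone genes besides Hspa1a and Hspa1b, 9 were higher and 6 lower in cultured than resident cells (37.9% and 37.2% of all genes), from Hspa9 (1.59 ± 0.16) to Hsph1 (-1.68 ± 0.32). In resident replicate 1, 13 of 17 were the highest of the group, with a median difference of 0.51, and Dnajb1, a co-chaperone of Hsp70, was the highest of these 17 at 1.88. Hspb1, a small heat shock protein of the same list that did not pass the filter, was at 13.7 CPM in resident replicate 1 and at 0.187 to 0.428 in the other resident libraries. Dnajb4 was the 1 gene of that list called between transplanted and resident cells (-0.62 ± 0.17, edgeR adjusted p = 0.0381; -0.41 ± 0.09 and 0.0166 without resident replicate 1). Of 14 NF-κB factors and feedback genes 8 were higher and 3 lower in culture. Among the 8, Tnip3 was at 1.24 to 2 CPM in culture and at 0 in every resident library. It passed the filter only through the cultured libraries, so it had to differ. Between transplanted and resident cells 4 of 13 were called, all higher, against 7.17% of all genes called higher and 5.86% lower: Bcl3 (2.18 ± 0.47, edgeR adjusted p = 0.0122), Relb (0.68 ± 0.17, adjusted p = 0.0291), Tnip1 (0.48 ± 0.11, adjusted p = 0.0185) and Birc3 (0.33 ± 0.07, adjusted p = 0.0142). Without resident replicate 1 these were Bcl3, Tnip1 and Birc3. Of 11 mRNA decay genes 4 were higher and 4 lower in culture, close to the shares over all genes, and 0 were called between transplanted and resident cells. Of 12 other AP-1 and Maf family genes 5 were higher and 5 lower in culture. Fosl1, among the 5 higher, is the gene named above that had to differ. In transplanted against resident cells 1 of 10, Batf2 (1.03 ± 0.24, adjusted p = 0.0185), was higher, with an adjusted p of 0.0502 when resident replicate 1 was left out. The counts by direction in culture shifted on TPM, where the median of all genes was -0.95: of the 13 NF-κB genes tested there, 1 was called higher and 10 lower.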

How the data were processed

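The table, deposited by the authors, gives for each of 16894 Entrez genes an expected count, a TPM and an FPKM per library, per the file headers. Expected counts are estimates not scaled for depth, and 81.5% to 84.9% of them are whole numbers. TPM was computed by the authors and scales for length and library. HISAT, Bowtie2 and GRCm38.p6 are named, per the submitters' processing notes; the counter, strand and filters were not given in the sources used here. Of the other per-sample columns, 11 hold FPKM and were left aside, and 0 could not be mapped. Per the labels' protocols, 1 ng of RNA was made into cDNA with a Smart-Seq protocol, with no molecular identifiers named, so that an interval or floor covers only counting error. RefSeq symbols matched 99.7% of identifiers. Overlapping loci in RefSeq (Gm32255 at Egr2, Gm34921 at Dusp6, Gm35248 at Klf10, LOC105244150 at Nr4a2) cannot be told apart from these genes without strand.

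Expected counts were rounded and each pair of groups was fitted alone over all genes with edgeR 4.0.16 (R 4.3.3): TMM, filterByExpr, quasi-likelihood test, Benjamini-Hochberg adjustment, called under 0.05. Log2 levels use a prior count of 1. Alternatives were DESeq2 1.42.0, limma 3.58.1 on log2(TPM + 1) for genes with TPM of at least 1, no filter, a robust fit, a joint fit of the 3 groups, a replicate block and the omission of each library. The fits were tested on simulated data: 100% of genes changed by a log2 of 2 or 3 were recovered in each comparison, with 9 false calls among 12354 genes tested in cultured against resident, 12 among 11962 in transplanted against resident and 11 among 12223 in transplanted against cultured. The simulation gave all genes the same spread and changed a small share of them, none with low counts. It held no library that stood apart, so it does not show how the fits behave with resident replicate 1. The genes named are all 36 of the set and, of each further list, those with the highest and lowest fold change and up to 6 called between transplanted and resident cells. The set and lists were chosen with earlier results of these data known.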

Additional observations from a re-analysis of the deposited data

Results flagged for a closer look

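In groups of 4 libraries, a gene was singled out where 1 library lay far from the other 3 on log2 CPM by Dixon's criterion, which sets the gap to the nearest library against the whole range. Chance singles out about 1 in 20 groups. Resident replicate 1 was far above its group for 19 of the 36 genes, against 1.33% of all 12590 genes. The differences from the mean of the other resident libraries were 6.34 for Dusp1, 5.67 for Klf2, 5.46 for Ier2, 5.36 for Egr3, 5.05 for Klf4, 5.02 for Egr2 and 4.47 for Ier3. They were 3.93 for Jun, 3.78 for Atf3, 3.59 for Dusp2, 3.54 for Zfp36, 3.26 for Nr4a1 and 3.14 for Junb. They were 2.90 for Btg2, 2.74 for Nfkbiz, 1.71 for Ier5, 1.11 for Btg1, 1.04 for Klf10 and 1.00 for Klf6. Fos, Fosb and Egr1, with the largest differences, were not singled out because the other 3 resident libraries themselves spread widely.

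Transplanted replicate 3 was far above its group for Egr1 (1.37), Gadd45b (0.78) and Zfp36 (0.47), against 1.14% of all genes. Transplanted replicate 2 was far below its group for Nr4a2 (-3.16) and Dusp5 (-1.58), against 0.675% of all genes. Both genes had a count of 0 in that library and few counts in the others.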

How the results depend on the processing

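The count of genes called in cultured against resident cells, 23 of 36, ranged from 20 to 35 when 1 library was left out; 35 was reached without resident replicate 1, and the other omissions gave 20 to 22. DESeq2 called 21, with no adjusted p for 14 genes. The count in transplanted against resident cells, 0, ranged from 0 to 1, with 1 (Nfkbiz) without resident replicate 1. The count in transplanted against cultured cells, 35, was 33 to 35 with a library left out and 29 when the 3 groups shared 1 estimate of spread. The cultured mean was above the transplanted mean for 30 genes on CPM and 28 on TPM. The median difference of resident replicate 1 from its group, 3.20, was 2.71 on TPM, 2.94 with a prior count of 5 and 3.27 with 0.5. Directions changed as follows. On TPM, cultured against resident gave 2.79 for Fos and -0.54 for Ier5, transplanted against resident 0.06 for Myc, and transplanted against cultured 0.31 for Ier5 and 0.06 for Dusp2. With 1 library left out, cultured against resident ranged from -1.10 to 6.18 for Fos, -0.18 to 1.05 for Ier5, -0.71 to 1.57 for Dusp2 and -0.59 to 1.59 for Zfp36. Transplanted against resident ranged from -6.38 to 1.45 for Fos, -5.24 to 0.95 for Fosb, -2.22 to 0.31 for Jun, -1.53 to 0.33 for Junb, -5.68 to 0.50 for Egr1, -3.53 to 0.55 for Ier2, -0.68 to 0.15 for Ier5, -4.04 to 0.72 for Dusp1, -1.74 to 0.54 for Dusp2, -1.98 to 0.21 for Zfp36, -0.29 to 0.38 for Myc, -0.90 to 0.65 for Nfkbiz, -0.03 to 0.39 for Nfkbia and -0.17 to 0.57 for Cebpb. The highest value of each came without resident replicate 1, except for Cebpb, whose came without transplanted replicate 2; the cause was not tested. Replicate numbers did not pair the libraries (correlations of same-numbered deviations from -0.07 to 0.05). With the replicate number as a block, 25, 0 and 34 genes were called in cultured against resident, transplanted against resident and transplanted against cultured; on the same libraries without the block, 22 and 35 were called in the first and last. The block gave 4.20 for Fos, 0.35 for Dusp2 and 0.47 for Zfp36 in cultured against resident, and 0.03 for Myc in transplanted against resident. With 3 or 4 libraries a group and few counts for Dusp5, Egr3, Hspa1b, Maff, Nr4a2 and Nr4a3 in sorted cells, depth limits what can be said of those genes.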
